A study of Homo sapiens with 4 samples.

Results

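The EGF family ligands and their ERBB receptors were followed through 4 mRNA libraries of PK-1, a human pancreatic cancer cell line. The members were taken by gene symbol: the 6 ligands AREG, EREG, HBEGF, TGFA, BTC and EPGN and the 3 receptors EGFR, ERBB2 and ERBB3, which are 9 of the 53826 entities listed in each library. The study asked what overexpression of SPRR1A, a small proline-rich protein of the cornified envelope of squamous epithelium, does to the transcriptome of these cells, in stably and in transiently changed cells. The stable model consisted of PK-1 cells transduced with a pMXs retroviral vector that carried either FLAG-tagged SPRR1A (stable SPRR1A) or the red fluorescent protein DsRed (stable DsRed). The transient model consisted of PK-1 cells transfected with a pCAG plasmid that carried either FLAG-tagged SPRR1A (transient SPRR1A) or green fluorescent protein (transient GFP), with RNA taken 48 h later. All 4 libraries came from the same line, neither control was an untreated culture, and whether single clones were picked is not given in the sources used here. Each condition had 1 library, so no difference below has a replicate check, no error and no p-value is given, and a difference is a difference between 2 libraries.

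EGF family ligands are made as transmembrane precursors, and the extracellular domain is cut off by metalloproteases of the ADAM family before it acts on the same or a neighbouring cell. Ligand binding lets ERBB receptors pair, after which their kinases phosphorylate the partner and start the RAS-MAPK and PI3K-AKT cascades. In pancreatic duct cells and pancreatic cancer this pathway is known for driving growth, and TGFA and EGFR are known for their part in the change of acinar into duct-like cells.

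Levels are given as log2 TPM, transcript abundance scaled to a fixed sum per library after division by transcript length, so that genes can be compared with each other within a library. The deposited scale ends at 0, called the floor, so that any gene at or under 1 TPM is listed as 0. SPRR1A, the gene that was introduced, was at log2 TPM 10.93 (SPRR1A) and 0.75 (DsRed) in the stable model and at 16.60 (SPRR1A) and 3.56 (GFP) in the transient model. In the transient SPRR1A library it took 9.92% of all TPM, which lowers the TPM of every other gene there, against 0.196% or less in the other libraries. All 5 epithelial markers (EPCAM, CDH1, KRT8, KRT18 and KRT19) were at log2 TPM 7.03 or more in every library. All 3 endothelial markers, 3 of 4 fibroblast markers and 2 of 3 leukocyte markers were at 0 in all 4 libraries, and the exceptions were COL1A1, at 1.96 to 2.62, and CD68, at 3.99 to 4.91. CD68 was at least 4.89 in both transient and at most 4.09 in both stable libraries, and any part of cells other than PK-1 in the values below was not tested.

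AREG was by far the most abundant member. Amphiregulin, its product, is a ligand of EGFR that is widely made by epithelial and carcinoma cells. Its level was log2 TPM 9.03 with SPRR1A and 8.87 with DsRed in the stable model, and 9.13 with SPRR1A and 9.26 with GFP in the transient model, or 467 to 613 TPM. This placed it between rank 208 and rank 287 of all entities, above every other member in all 4 libraries.

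EREG, which encodes epiregulin, a ligand of EGFR and ERBB4, was at log2 TPM 5.67 with SPRR1A and 5.30 with DsRed in the stable model, and at 6.34 with SPRR1A and 6.61 with GFP in the transient model. HBEGF encodes heparin-binding EGF-like growth factor, a ligand of EGFR and ERBB4 and also the receptor of diphtheria toxin. Its level was 5.80, 5.77, 6.87 and 6.99 log2 TPM in the same order of libraries. For both genes, each transient library was above each stable library, and the stable DsRed library was the lowest. Their ranges over the 4 libraries, 1.31 for EREG and 1.22 for HBEGF on the log2 scale, were the widest of the 9 members.

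TGFA, which encodes transforming growth factor alpha, a ligand of EGFR, was at log2 TPM 6.20 with SPRR1A and 6.06 with DsRed in the stable model, and at 6.10 with SPRR1A and 6.34 with GFP in the transient model. Its range of 0.29 was the narrowest of the ligands, and the models overlapped. The levels of the remaining ligands were low. EPGN, which encodes epigen, a weakly binding ligand of EGFR, was at 3.91, 3.58, 3.84 and 4.11 log2 TPM in the same order. BTC, which encodes betacellulin, a ligand of EGFR and ERBB4, was at 2.29, 1.79, 2.67 and 2.57, and its TPM was under 5 in both stable libraries, so that it is left out of counts over well-expressed entities, those of 5 TPM or more in the libraries compared.

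Among the receptors, EGFR varied most. It was at log2 TPM 5.77 with SPRR1A and 5.12 with DsRed in the stable model, and at 5.92 with SPRR1A and 6.28 with GFP in the transient model, a range of 1.16, with stable DsRed 0.65 below the next library. ERBB2, the receptor that binds no ligand of its own and acts as a partner of the others, was at 6.11, 6.17, 5.77 and 5.91 in the same order. ERBB2 was the member whose order of libraries ran the other way: each stable library was above each transient library. ERBB3, a receptor for neuregulins with little kinase activity of its own, was at 4.64, 4.56, 4.45 and 4.68, with overlapping models and the narrowest range of all members, 0.24.

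All 9 members were above the floor in all 4 libraries. Of these, 7 had their lowest level in the stable DsRed library. The count was 6 of 9 once each library was centred on its own median and 8 of 9 once the TPM total excluded SPRR1A. Of all entities above the floor in the pair compared, 64.1% were higher in stable SPRR1A than in stable DsRed. Against transient GFP it was 66.3%, higher in transient GFP cells. How many of all entities were lowest in stable DsRed was not counted, so nothing particular to the members is read from it. AREG stood first and ERBB3, EPGN and BTC stood in the last 3 places in every library. What changed place was the middle of the order. TGFA and ERBB2 held places 2 and 3 in the stable libraries, whereas HBEGF and EREG held them in both transient ones, in that order. The distance between neighbours in the middle was often small: in stable SPRR1A, HBEGF at 5.80 and EGFR at 5.77 differed by less than any member's range over the libraries.

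**Figure D1:**
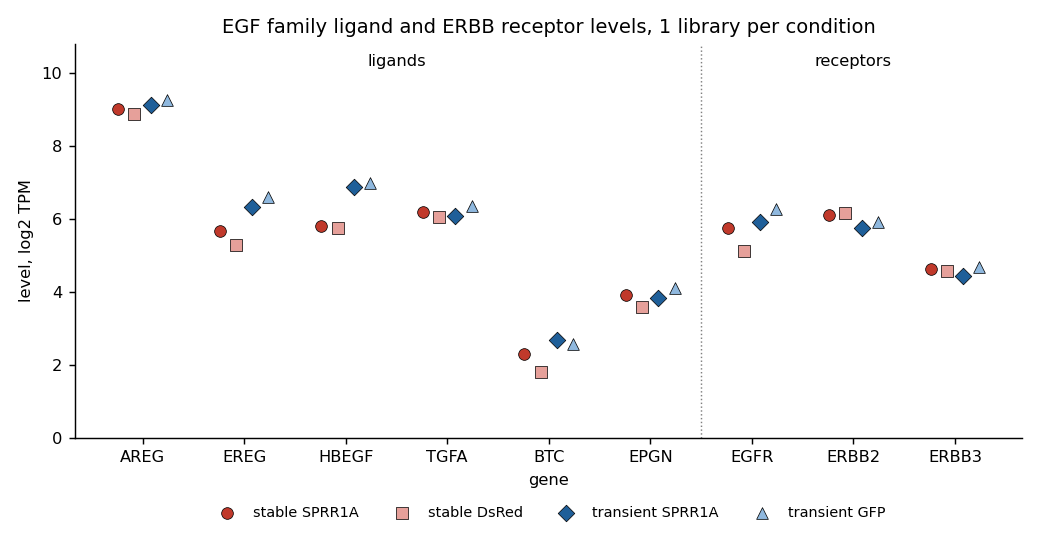
Level of each member in each library, in log2 TPM on the vertical axis, with ligands to the left and receptors to the right of the dotted line and 1 point per library. AREG lies near 9 in all 4 libraries, EREG and HBEGF lie higher in both transient libraries, and EGFR is lowest in stable DsRed at 5.12.

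Summed over the 6 ligands, the level was 722 TPM with SPRR1A and 643 with DsRed in the stable model, and 849 with SPRR1A and 942 with GFP in the transient model. The 3 receptors summed to 148, 131, 137 and 163 TPM in the same order. Ligand transcripts therefore outnumbered receptor transcripts by 4.87, 4.92, 6.21 and 5.77 to 1. AREG supplied 72.3% and 72.7% of ligand transcripts in the stable libraries and 66.2% and 65.1% in the transient SPRR1A and transient GFP libraries. The share of HBEGF was 7.72% and 8.47% in the stable SPRR1A and stable DsRed libraries and 13.8% and 13.5% in transient SPRR1A and transient GFP cells. EREG made up 7.04%, 6.12%, 9.56% and 10.3% of ligand transcripts in the order given for the sums. These shares do not depend on the TPM total. Within the receptors, EGFR made up 36.7%, 26.6%, 44.3% and 47.5% and ERBB2 46.5%, 55.3%, 39.8% and 36.8% in the same order, so that ERBB2 was the leading receptor transcript in the stable and EGFR in the transient libraries.

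**Figure D2:**
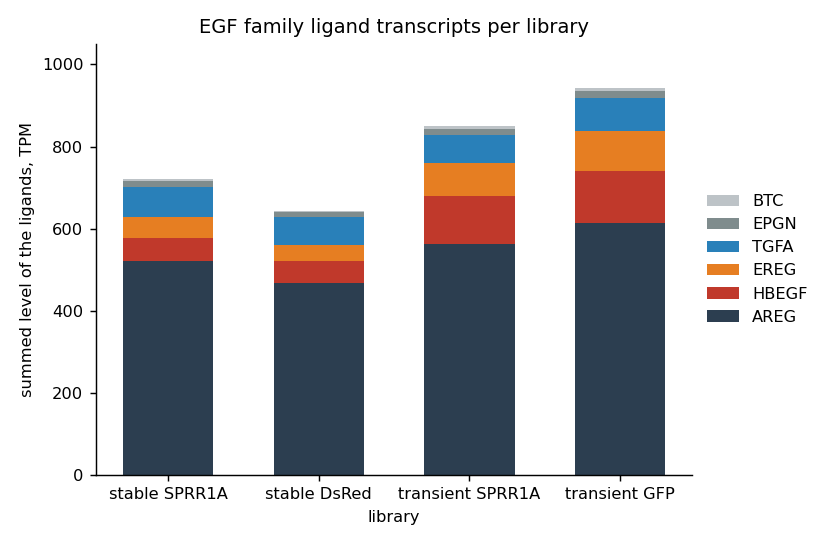
Summed level of the 6 ligands in TPM on the vertical axis, 1 stacked bar per library, with each colour the level of 1 ligand. AREG is the largest part of every bar, and HBEGF and EREG take a larger share in both transient libraries.

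The positions of the genes are those of RefSeq on GRCh38.p14. EPGN, EREG and AREG lie in a row on the plus strand of chromosome 4, at chr4:74308470-74316789, chr4:74365145-74388749 and chr4:74445136-74455005, with gaps of 48.4 kb and 56.4 kb between them. BTC follows on the minus strand at chr4:74744759-74794523, 289.8 kb beyond AREG, and the 4 genes span 486 kb with no other protein-coding gene of RefSeq between them. Neighbours in this row differed widely in level: AREG was above EREG by 3.36, 3.57, 2.79 and 2.65 on the log2 scale, with the stable pair (SPRR1A, DsRed) before the transient pair (SPRR1A, GFP). The other members lie apart: TGFA at chr2:70447284-70553826 (minus strand), HBEGF at chr5:140332843-140346603 (minus strand), EGFR at chr7:55019017-55211628 (plus strand), ERBB2 at chr17:39688094-39728658 (plus strand) and ERBB3 at chr12:56080108-56103505 (plus strand). The intronic transcript TGFA-IT1 was at 0 in all 4 libraries and the antisense transcript EGFR-AS1 was at 0 in 3 libraries and at log2 TPM 0.08 in transient GFP cells.

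**Figure D3:**
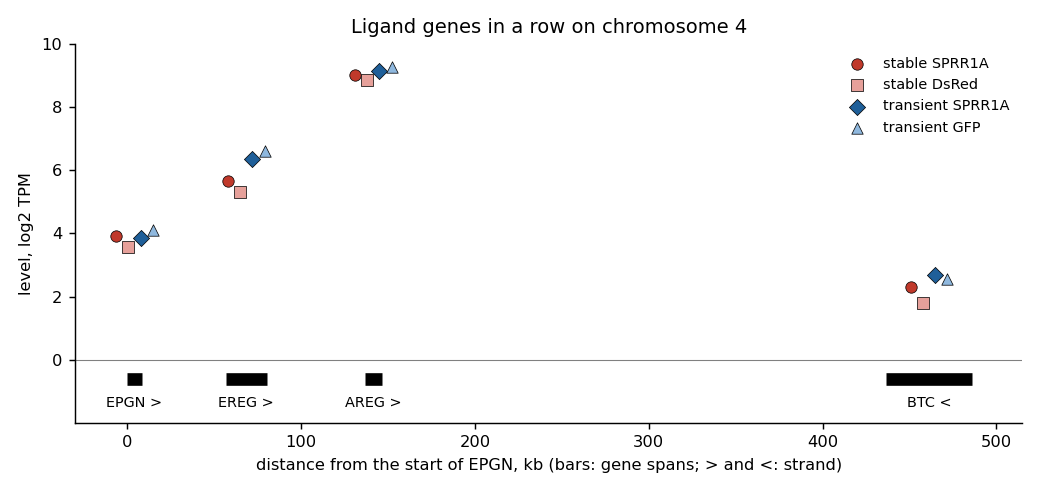
The ligand genes in a row on chromosome 4, with the distance from the start of EPGN in kb on the horizontal axis and the level in log2 TPM on the vertical axis. Black bars are gene spans, points are the 4 libraries, and AREG lies above its neighbours EREG and BTC in every library.

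Promoter sequence is shown for the most abundant ligand and for the 3 members with the widest range over the 4 libraries. Each run is 300 bases of GRCh38.p14 from RefSeq, 250 bases before and 50 bases after the annotated start, written 5′ to 3′ on the strand of the gene: AREG at chr4:74444886-74445185 (plus), EREG at chr4:74364895-74365194 (plus), HBEGF at chr5:140346554-140346853 (minus) and EGFR at chr7:55018767-55019066 (plus). Capitals mark matches, on either strand, to 5 motifs: the TATA box (TATAAA), the AP-1 element (TGANTCA), the cAMP response element (TGACGTCA), the GC box (GGGCGG) and the ETS element (CCGGAAGT), where overlapping matches run together.
AREG: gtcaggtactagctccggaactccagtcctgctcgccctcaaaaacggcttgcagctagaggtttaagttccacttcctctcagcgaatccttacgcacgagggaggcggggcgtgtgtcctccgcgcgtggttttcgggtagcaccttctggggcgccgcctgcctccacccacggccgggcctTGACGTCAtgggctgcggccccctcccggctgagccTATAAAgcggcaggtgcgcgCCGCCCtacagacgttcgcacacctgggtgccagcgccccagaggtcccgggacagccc
EREG: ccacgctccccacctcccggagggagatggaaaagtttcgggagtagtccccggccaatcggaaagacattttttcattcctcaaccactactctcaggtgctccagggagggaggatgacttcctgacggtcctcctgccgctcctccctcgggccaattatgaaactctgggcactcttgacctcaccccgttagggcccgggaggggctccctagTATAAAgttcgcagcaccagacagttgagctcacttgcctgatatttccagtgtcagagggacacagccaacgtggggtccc
HBEGF: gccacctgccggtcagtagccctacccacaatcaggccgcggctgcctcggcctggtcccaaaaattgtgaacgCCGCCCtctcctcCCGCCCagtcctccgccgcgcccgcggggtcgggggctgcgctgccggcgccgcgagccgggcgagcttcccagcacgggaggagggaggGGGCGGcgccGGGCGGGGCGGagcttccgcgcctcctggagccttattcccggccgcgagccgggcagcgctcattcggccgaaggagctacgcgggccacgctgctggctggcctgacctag
EGFR: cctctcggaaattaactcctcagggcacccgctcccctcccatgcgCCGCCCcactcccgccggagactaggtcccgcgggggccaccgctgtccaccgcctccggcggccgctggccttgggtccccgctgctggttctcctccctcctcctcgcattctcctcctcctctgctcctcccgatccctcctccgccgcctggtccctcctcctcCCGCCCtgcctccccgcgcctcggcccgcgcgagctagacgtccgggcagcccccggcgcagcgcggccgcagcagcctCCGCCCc
The AREG window holds a TATA box that starts 29 bases before the start site, a cAMP response element 65 bases before it and a GC box 9 bases before it. The EREG window holds a TATA box 32 bases before the start and none of the other motifs. The HBEGF window holds 5 GC boxes and the EGFR window 3, and neither holds a TATA box. The 8 members in the table had 10 windows, since TGFA and EGFR each had another one at an internal start. A TATA box was in 4 of the 10 (AREG, EREG, EPGN and the internal window of EGFR), against 11.5% of 35116 RefSeq promoter windows, and a GC box in 5, against 45.0%. The cAMP response element was found in 1 window, that of AREG (1.85% of all windows). The AP-1 element (7.71%) was in 2, that of ERBB2 and the internal window of EGFR, and the ETS element (4.14%) in that of ERBB2. These matches describe letters in these windows and say nothing about which factor binds there.

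In the stable model, EGFR was the member that differed most between SPRR1A and control cells. It was 54.4 TPM in stable SPRR1A and 34.8 TPM in stable DsRed cells, which is 0.65 on the log2 scale or 1.56-fold. BTC was 0.50 higher in stable SPRR1A on the log2 scale, EREG 0.37, EPGN 0.33, AREG 0.16, TGFA 0.14, ERBB3 0.07 and HBEGF 0.03, and ERBB2 was at -0.07. EGFR ranked 27th from the top among 9835 well-expressed entities, whose central 95% lay between -0.27 and 0.41 with a median of 0.06. The other 7 members in that set lay inside this range. Thus 8 of 9 members were higher in stable SPRR1A, 7 of 9 after centring on the median, when HBEGF was at -0.03. Of all entities above the floor in both libraries 64.1% were higher as deposited. Centring leaves as many well-expressed entities above their median as below it by construction, and nothing particular to the members is read from these counts.

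No member passed the 2-fold threshold in the stable model, higher or lower, where 0.13% of all entities were higher and 0.104% lower by more than 2-fold, and 0.361% and 0.267% of entities above the floor in both libraries. At 1.5-fold, 1 of the 8 well-expressed members was higher, EGFR, and 0 were lower, against 0.376% and 0.214% of well-expressed entities. The median difference was 0.24 over the ligands and 0.07 over the receptors, beside 0.07 over all entities above the floor. After centring, the difference of EGFR was 0.59, only just past 1.5-fold, and it was under 1.5-fold, at 0.54, against entities alike in GC content and length.

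In the transient model the members lay close to the bulk of the transcriptome. EGFR was 60.6 TPM in transient SPRR1A and 77.5 TPM in transient GFP cells, a log2 difference of -0.35, the lowest of the members. EPGN was at -0.27, EREG at -0.26, TGFA at -0.25, ERBB3 at -0.24, ERBB2 at -0.14, AREG at -0.13 and HBEGF at -0.12, whereas BTC was at 0.11. As deposited, 8 of 9 members were lower in transient SPRR1A, but 5 of 9 after centring on the median of well-expressed entities, which was -0.18. AREG, HBEGF and ERBB2 were then higher, at 0.06, 0.07 and 0.04, and they were also higher, at 0.02, 0.04 and 0.01, when the TPM total excluded SPRR1A. Of all entities above the floor in both libraries 9.28% were higher in transient SPRR1A as deposited. By construction, centring leaves as many well-expressed entities above their median as below it.

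BTC was the 1 member outside the central 95% of all differences in the transient model, which ran from -0.43 to 0.07, and its TPM of 5.92 and 6.37 is low. No member passed 2-fold in either direction, where 0.0483% of all entities were higher and 0.178% lower, and 0.0611% and 0.405% of those above the floor in both libraries. None of the 9 passed 1.5-fold, against 0.0788% higher and 0.512% lower among well-expressed entities. The median difference was -0.19 over the ligands and -0.24 over the receptors, beside -0.19 over all entities above the floor.

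Set side by side, 7 of 9 members were higher in stable SPRR1A than in stable DsRed and lower in transient SPRR1A than in transient GFP cells, as were 60.0% of the 12542 entities above the floor in all 4 libraries. After centring, 5 members kept that pair of directions and 2, HBEGF and ERBB2, had the opposite pair, and the share of well-expressed entities with the first pair was 62.5% before and 29.7% after centring. EGFR had the widest gap between the models, 0.65 with stable and -0.35 with transient expression of SPRR1A. After centring these were 0.59 and -0.17. For AREG these values as deposited were 0.16 and -0.13, and for HBEGF 0.03 and -0.12. Neither difference was tested against the other. In RNA from whole cultures, fewer cells that express a gene and less RNA per cell cannot be told apart, and the share of transfected cells is not given in these values.

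**Figure D4:**
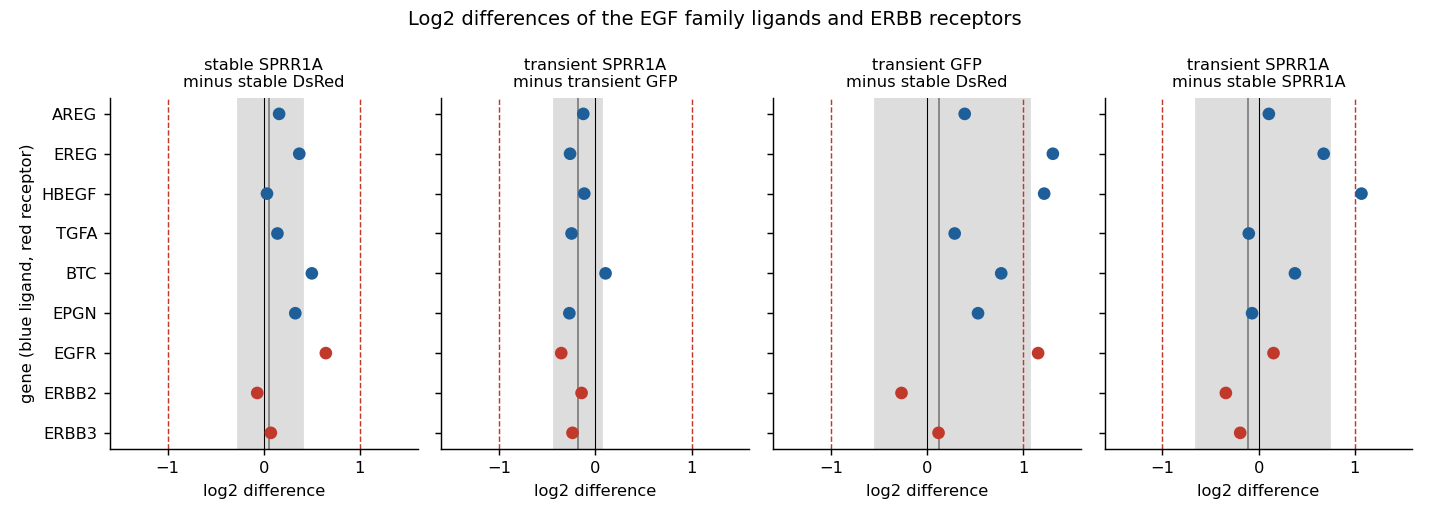
Log2 difference of each member in the 4 comparisons, ligands in blue and receptors in red. Grey bands hold the central 95% of well-expressed entities, grey lines their median and red dashed lines mark 2-fold. EGFR lies outside the band in the stable comparison, and EREG, HBEGF and EGFR lie past 2-fold between the controls.

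Between the controls, 8 of 9 members differed by more than SPRR1A and control cells did within either model, as deposited and after centring, with ERBB3 the exception. How many of all entities did so was not counted, so nothing particular to the members is read from it. The SD of the differences over well-expressed entities was 0.42 for the controls, 0.17 for the stable and 0.19 for the transient comparison. EREG was 39.3 TPM in stable DsRed and 97.4 TPM in transient GFP cells, a log2 difference of 1.31 or 2.48-fold. HBEGF was 54.5 and 127 TPM, a difference of 1.22 or 2.33-fold. EGFR was 34.8 and 77.5 TPM, a difference of 1.16 or 2.23-fold. BTC was 0.77 higher in transient GFP cells, EPGN 0.53, AREG 0.39, TGFA 0.29 and ERBB3 0.12, whereas ERBB2 was at -0.26. After centring, ERBB3 was at 0.00 to 2 decimals, on the other side of zero, and the other 8 members kept their sign.

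Between the controls, 3 of 9 members were thus more than 2-fold higher in transient GFP cells and 0 lower, where 1.75% of all entities were higher and 0.169% lower, and 6.1% and 0.541% of entities above the floor in both libraries. The same 3 were the members past 1.5-fold among the 8 that were well expressed, against 13.5% of such entities higher and 1.9% lower. The median difference was 0.65 over the ligands and 0.12 over the receptors, beside 0.17 over all entities above the floor. Vector, fluorescent protein, delivery and culture history all differ between these controls and cannot be told apart. SPRR1A itself also differed, at log2 TPM 0.75 in stable DsRed and 3.56 in transient GFP cells, and its part was not tested. The comparison shares its stable DsRed library with the stable and its transient GFP library with the transient comparison.

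The SPRR1A libraries of both models share no library with the controls. HBEGF was 55.7 TPM in stable SPRR1A and 117 TPM in transient SPRR1A cells, a log2 difference of 1.07 or 2.10-fold. EREG was 0.68 higher in transient SPRR1A cells, BTC 0.38, EGFR 0.16 and AREG 0.11, whereas EPGN was at -0.07, TGFA at -0.10, ERBB3 at -0.19 and ERBB2 at -0.34. HBEGF was the 1 member past 2-fold, where 0.658% of all entities were higher and 0.245% lower, and 2.2% and 0.774% of those above the floor. HBEGF and EREG were the 2 of 8 past 1.5-fold, against 3.94% higher and 3.8% lower. As deposited, 5 of 9 members were higher in transient SPRR1A cells, beside 39.3% of all entities above the floor in both libraries. After centring on the median of -0.11 it was 7 of 9, when TGFA and EPGN changed sign. Such centring leaves as many well-expressed entities higher as lower by construction, and nothing particular to the members is read from either count. EGFR was at 0.16 here, against 1.16 for the controls. This gap of 1.0 is by construction the same as the gap between its differences in the stable and the transient model.

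HBEGF, EREG, BTC, AREG and EGFR were higher and ERBB2 was lower in the transient library in both of these comparisons. Each of these 6 kept its sign after centring. The share of all entities with the same sign in both comparisons was not computed. HBEGF differed by a like amount in both, 1.22 and 1.07. For EREG these differences were 1.31 and 0.68. Summed over the ligands other than AREG, the level was 176 TPM in stable DsRed and 329 TPM in transient GFP cells, or 1.87-fold, and 199.9 TPM in stable SPRR1A and 287 TPM in transient SPRR1A cells, or 1.44-fold.

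Base composition and transcript length moved with the differences between the controls and in the stable model, and less in the transient model. Among 9200 entities with a matched transcript that were well expressed in every library, split into 5 equal groups by GC content, the median difference between the controls went from 0.32 in the lowest to -0.02 in the highest group. In the stable model it went from 0.18 to -0.03. By length, the medians ran from -0.08 for the shortest to 0.28 for the longest transcripts between the controls and from -0.03 to 0.13 within the stable pair. Between the transient libraries they went from -0.22 in the lowest to -0.17 in the highest group by GC content, and by length the other way than with stable expression, from -0.13 for the shortest to -0.23 for the longest. The member with the lowest GC content was EREG, at 36.1% over 4615 bases, the longest transcript was that of EGFR, at 9905 bases and 47.8% GC, and the highest GC content was that of ERBB2, at 60.4%. AREG, at 1234 bases, had the shortest.

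With entities alike in GC content and length as the base, EGFR was 0.54 higher in stable SPRR1A than in stable DsRed cells, so that no member was past 1.5-fold there. Between the controls, HBEGF was then at 1.16, EREG at 0.95 and EGFR at 0.95, so that 1 member in place of 3 was past 2-fold. HBEGF was at 1.21 and EREG at 0.74 between the SPRR1A libraries. In the stable model TGFA, HBEGF and ERBB3 were then close to entities alike, at 0.01, 0.00 and -0.03. This alternative was chosen after the data had been seen, and the part of base composition and length in the differences was not tested further.

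**Figure D5:**
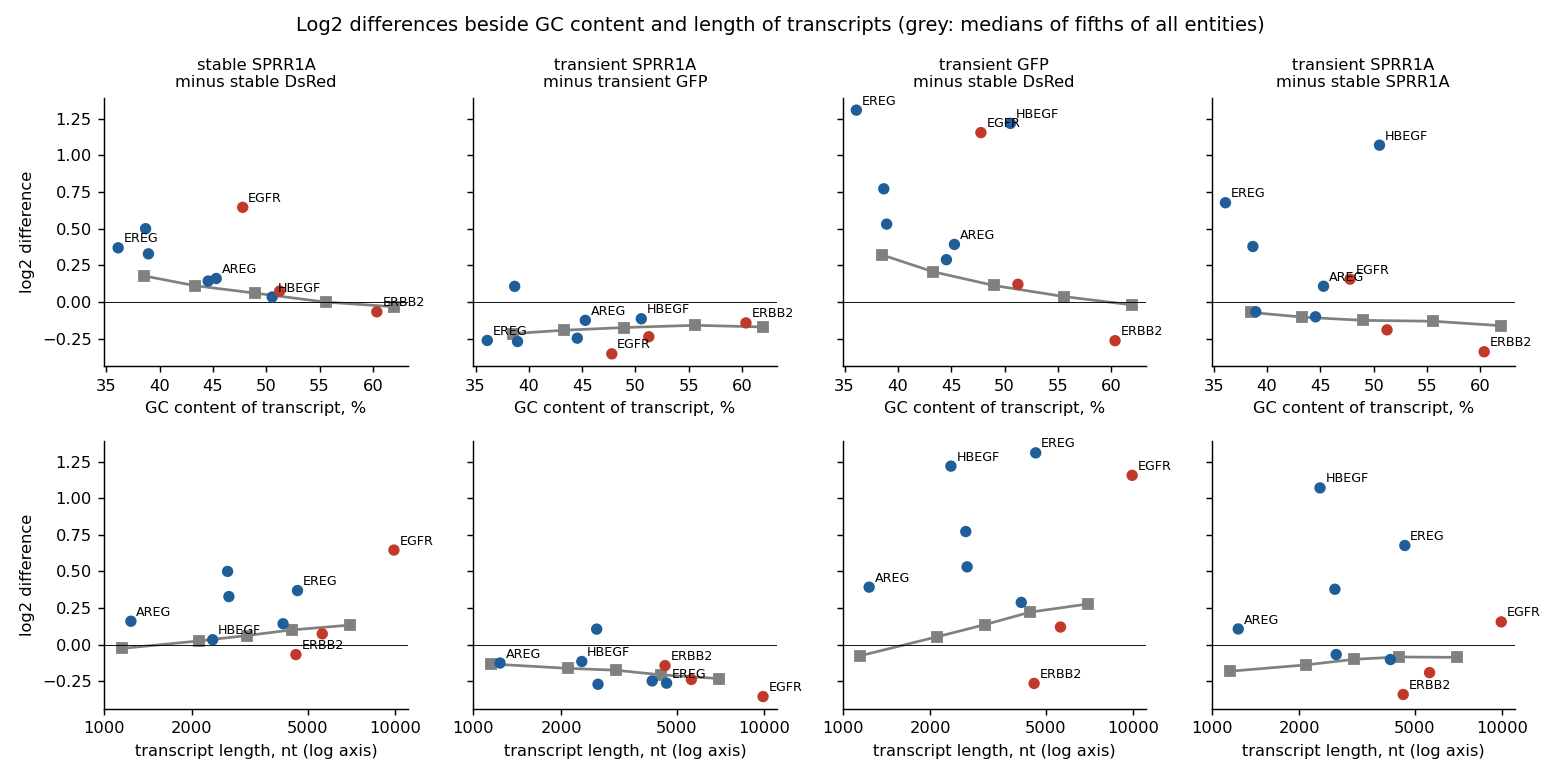
Log2 difference of each member (ligands blue, receptors red) against the GC content in % (upper row) and the length in nucleotides on a log axis (lower row) of its transcript, in the 4 comparisons. Grey squares are medians of 5 equal groups of entities well expressed in every library. EGFR in the stable comparison and HBEGF between the controls lie well above the grey line.

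Other genes of the pathway were counted in 7 lists. Of the other EGF family ligands and ERBB4, ERBB4, NRG2 and NRG3 were at 0 in all 4 libraries. EGF itself was at 0.08, 0.01, 0.10 and 0.43 log2 TPM, with the stable pair (SPRR1A, DsRed) before the transient pair (SPRR1A, GFP), barely above the floor. NRG1, a neuregulin that binds ERBB3 and ERBB4, was at 4.06, 3.81, 3.97 and 4.15, and NRG4, a neuregulin that binds ERBB4, at 3.02, 3.09, 3.18 and 3.20. Within either model, 0 genes of the 7 lists passed 2-fold in either direction.

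The 9 genes of ligand shedding were all above the floor. ADAM17, the main sheddase of AREG, EREG, HBEGF and TGFA, was at 5.21, 5.05, 5.44 and 5.67 log2 TPM, and ADAM10, which sheds BTC, at 6.24, 5.93, 6.28 and 6.58. Both were lowest in stable DsRed and highest in transient GFP cells, as EREG was. That pattern was not particular to them, since ADAM9, RHBDL2, SOS1, SOS2, CBL, NRAS and BRAF had it too. Its share over all entities was not computed. All 9 were lower in transient SPRR1A than in transient GFP cells, 6 of 9 after centring, with a median of -0.29 beside -0.19 over all entities above the floor. In the stable model 7 were higher with SPRR1A, 6 of 9 after centring, with a median of 0.12 beside 0.07. Among all entities above the floor in both libraries, 64.1% were higher with stable SPRR1A and 9.28% with transient SPRR1A, as deposited. After centring, as many well-expressed entities are higher as lower by construction, and nothing particular to ligand shedding is read from these counts. TIMP3, an inhibitor of these proteases, was at 5.97, 6.04, 6.34 and 6.52.

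Between the controls, 8 of the 78 list genes (10.3%) were past 2-fold, all higher in transient GFP cells, where 1.75% of all entities were. Of those above the floor in both libraries it was 7 of 73 (9.59%), against 6.1% of all such entities, so that nothing particular to the lists is read from it. Of 11 receptor adaptors these were SOS2, an exchange factor of RAS, with a log2 difference of 1.23, GRB7, which binds ERBB2, with 1.17, and GAB2, which was listed at 0 in both stable libraries and at 1.14 and 1.30 in transient GFP and transient SPRR1A cells. GRB7 lies close to ERBB2 on chromosome 17, at chr17:39737938-39747285, and was at 4.29, 4.22, 5.24 and 5.39 log2 TPM in the same order as above, whereas ERBB2 was lower in the transient libraries. Of 16 genes of receptor down-regulation they were ERRFI1, an inhibitor of the EGFR kinase, with 1.01 (0.88 after centring, under 2-fold), and CBLB, a ubiquitin ligase, with 1.17 from levels of 0.49 and 1.66. Of 10 genes of the RAS-MAPK core the gene was BRAF, with 1.39, and of 11 of the PI3K-AKT core there was none.

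ERRFI1 was at 6.33, 6.17, 7.04 and 7.18 log2 TPM, with both transient libraries above both stable ones, as for HBEGF and EREG. The same held for SOS2, GRB7, NCK1, BRAF, SH3KBP1, DUSP5 and TIMP3, among others, so it was not particular to ERRFI1. From stable to transient SPRR1A cells 3 of the 78 list genes (3.85%) were past 2-fold, namely GAB2, EGR1 and FOS, where 0.658% of all entities were. Above the floor in both libraries it was 2 of 73 (2.74%), close to the 2.2% of all such entities. After centring, or with a TPM total without SPRR1A, GRB7 was past 2-fold too, at 1.06 and 1.09. Of the genes above the floor with stable SPRR1A, 9 of 10 receptor adaptors, 12 of 15 genes of receptor down-regulation, 8 of 10 of the RAS-MAPK core and 11 of 11 of the PI3K-AKT core were higher than with DsRed, and 8, 10, 6 and 7 were after centring. With transient SPRR1A, 10 of 11, 15 of 15, 10 of 10 and 11 of 11 were lower than with GFP. After centring it was 6, 8, 7 and 9. Of all entities above the floor in both libraries, 64.1% were higher with stable SPRR1A and only 9.28% with transient SPRR1A. Those shares are as deposited. Centring leaves as many well-expressed entities higher as lower by construction, and the share of all entities above the floor after centring was not computed. Nothing particular to the lists is read from the counts as deposited or after centring. The medians of the lists between the controls ran from 0.16 for the PI3K-AKT core to 0.48 for ligand shedding, beside 0.17 over all entities above the floor.

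Of 15 ERK target and feedback genes, EGR1 and FOS, immediate early genes, were past 2-fold between the controls, with log2 differences of 2.24 and 1.83. In the SPRR1A libraries they differed by 1.72 and 1.88. In the stable model 10 of the 15 were higher with SPRR1A, 7 after centring, and in the transient model 14 were lower, 7 after centring. As deposited, 64.1% of all entities above the floor in both libraries were higher with stable SPRR1A and 9.28% with transient SPRR1A. Centring leaves as many well-expressed entities higher as lower, and nothing particular to the list is read from these counts. The medians of this list were 0.05 and -0.18, beside 0.07 and -0.19 over all entities above the floor.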

How the data were processed

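Per the labels, TRIzol RNA was made into stranded mRNA libraries (TruSeq). Per the methods of the study these were sequenced from both ends, and the authors aligned reads to the human transcriptome (hg38, also named in the submitters' processing notes) in Strand NGS with default parameters. The version and annotation are not given in the sources used here. The authors deposited 1 table per library with the log2 of TPM for 53826 entities, where 0 stands for a TPM of 1 or less. No counts are given, so depth in reads is unknown and no interval or floor in reads was computed. Between 12964 and 13558 entities per library were above 0.

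Differences of the deposited log2 values were computed between 4 pairs of libraries, with 2-fold as the threshold, as in the study, and 1.5-fold over entities of 5 TPM or more in the pair compared. A fold change of a gene near the floor is understated by it. With 1 library per condition no test was made. Sums and shares used TPM. The members and the gene lists were chosen with earlier results of these data known. The named genes are all members, SPRR1A, list genes past 2-fold or among the 3 largest differences of their list from 5 TPM upwards, genes beside or antisense to a member, and the 3 genes whose profile is nearest to that of the member with the widest range. EGF, NRG2, NRG3, ERBB4 and the marker genes are named beyond that rule, to account for the family and the cell type.

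Alternatives were pseudocounts of 1 and 0.1, a TPM total without SPRR1A, centring on the median, filters on low values and, chosen after seeing the data, centring on entities alike in GC content and length. GC content and length came from canonical transcripts of GENCODE 44, matched for 95.3% of 9658 entities. Positions and promoters came from RefSeq on GRCh38.p14, where ERBB3 had no promoter window in the table used. Calculations ran in Python 3.11.15 with numpy 2.4.6, pandas 2.3.3 and matplotlib 3.10.9, and were tested on simulated data.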

Additional observations from a re-analysis of the deposited data

Results flagged for a closer look

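For 7 members, SPRR1A and control cells differed in opposite directions in the stable and the transient model, with 1 library per condition, and none of these gaps was tested. The stable minus the transient log2 difference was 1.0 for EGFR, 0.63 for EREG, 0.60 for EPGN, 0.39 for TGFA, 0.31 for ERBB3, 0.29 for AREG and 0.15 for HBEGF. Of 9658 entities of 5 TPM or more in every library, 0.28% had a gap at least as high as that of EGFR, 4.50% as that of EREG and 5.81% as that of EPGN, whereas 67.4% had a gap at least as high as that of HBEGF. After centring on the median in each model the gap was 0.76 for EGFR, 0.39 for EREG, 0.36 for EPGN, 0.15 for TGFA, 0.07 for ERBB3, 0.04 for AREG and -0.09 for HBEGF. For TGFA, EPGN and ERBB3 the transient minus the stable difference also had opposite signs in the controls and in the SPRR1A libraries, with the same gaps of 0.39, 0.60 and 0.31, since both gaps are made of the same 4 values.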

How the results depend on the processing

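Of the 36 log2 differences of the members, 0 changed sign or crossed 2-fold under a pseudocount of 1 or 0.1, 5 changed sign when the TPM total excluded SPRR1A, 7 after centring on the median, and 6 with entities alike in GC content and length as the base. The members that changed sign were near 0, within 0.10 of it under the alternative. With entities alike as the base, EREG and EGFR were under 2-fold between the controls, and the number of members past 2-fold there was 1 in place of 3. The number of genes of the 7 other lists past 2-fold between the controls was 5 with log2(TPM + 1) and 3 over genes of 5 TPM or more in the pair, in place of 8, and between the SPRR1A libraries it was 1 with the latter, in place of 3. With log2(TPM + 1) the genes lost between the controls were GAB2 and CBLB, which are low, and ERRFI1, which is not low but lay at the threshold with 1.01 and was then just under it. ERRFI1 was also lost after centring, at 0.88. The filter removes genes by construction. EGFR in the stable model, past 1.5-fold in the main result, was under it at 0.54 with entities alike as the base. With SPRR1A excluded from the total, the transient SPRR1A library held 943 TPM of ligands in place of 849 and 152 TPM of receptors in place of 137, and the median difference of the transient model moved from -0.18 to -0.03. No paired analysis was possible because a lone library stands for every condition, and no library could be left out. The spread between cultures is unknown, and so is the depth in reads, which bears most on BTC, GAB2 and CBLB.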

Other observations

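EREG had the widest range of the members, and the 3 entities with the most similar profile over the 4 libraries, among 9658 of 5 TPM or more in each, were PJA2, SEC24A and GFPT1. The Euclidean distance between log2 profiles, each centred on its own mean, was 0.03, 0.05 and 0.05. PJA2, a ubiquitin ligase that acts on protein kinase A, was at log2 TPM 4.42 with SPRR1A and 4.06 with DsRed in the stable model, and at 5.07 with SPRR1A and 5.34 with GFP in the transient model. Of the members, HBEGF was nearest to EREG at 0.30, followed by EGFR at 0.40, and ERBB2 was farthest at 1.33. With 4 values per profile, a short distance is a description of these libraries only.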
